A study of Mus musculus with 22 samples.

Results

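The transcriptional consequence of removing MK3 from macrophages that already lacked MK2 was examined in bone marrow-derived macrophages (BMDM) treated with lipopolysaccharide (LPS), the cell wall component of Gram-negative bacteria that activates Toll-like receptor 4. The comparison rests on 8 of the 22 arrays of the series, namely 4 of MK2/3-/- BMDM and 4 of MK2-/- BMDM, chosen by their labels alone. All 8 cultures came from male C57BL/6 mice, according to the labels, and received 100 ng/ml LPS for 360 min after femoral bone marrow had differentiated for 9 days in 10 ng/ml M-CSF. The MK2-/- animals were 10 to 13 weeks old and the MK2/3-/- animals 11 to 14 weeks old. Both groups lacked MK2, and the deletions were present in the whole animal rather than in macrophages alone. The same genotypes kept in medium for 360 min without LPS (4 MK2-/- arrays from animals of 10 to 13 weeks and 3 MK2/3-/- arrays from animals of 11 to 12 weeks) and 3 LPS-treated wild-type (wt) arrays from animals of 12 to 13 weeks served as references, and 4 medium-treated wt arrays from animals of 12 to 13 weeks were used with the latter to class genes by their LPS response. The methods describe independent experiments. The main fit treated the arrays as unpaired, so that its p-values measure the spread between cultures within a group. They leave out the pairing of cultures by replicate number, which a separate fit with the number as a block takes into account.

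Each genotype was hybridised on a slide of its own, with its LPS and medium arrays side by side, so that an effect of the MK3 deletion and an effect of the slide cannot be told apart in a comparison of the genotypes under LPS. An effect that a slide adds equally to all of its arrays cancels in the difference between the LPS and the medium comparison, and this difference is therefore given as well. Among all 22 arrays, 61.7 to 83.0% of the spots were well above background. The upper end belonged to LPS-treated MK2-/- array 3, on which 2927 spots were marked as unusable against 115 to 261 on the other arrays. This array and medium-treated MK2-/- array 3 also lacked the signal of the Y-linked gene Ddx3y (1.99 and 2.01 on the log2 scale, against 10.09 to 11.26 on the other MK2-/- and MK2/3-/- arrays), which goes against the label of a male donor. Results that depend on these arrays are given with and without them.

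MK2 and MK3 are closely related protein kinases that are activated by the MAP kinase p38 when cells meet stress or bacterial products. In macrophages, MK2 phosphorylates the RNA-binding protein tristetraprolin, which otherwise promotes the decay of cytokine mRNAs with AU-rich elements, and thereby allows TNF, IL-6 and other inflammatory mediators to be made. MK3 shares substrates with MK2 but is usually the less abundant kinase, so its contribution is most readily seen when MK2 is missing.

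The Mapkapk3 transcript was the first check of the labels. On the log2 scale of the normalised signal, and in the order of replicates 1 to 4 that is used throughout, Mapkapk3 (NM_178907) gave 12.47, 12.57, 11.91 and 12.44 on the MK2-/- arrays and 7.66, 8.08, 7.73 and 8.55 on the MK2/3-/- arrays. It fell by 4.35 ± 0.22 (SE, adjusted p = 1.48e-09, limma with Benjamini-Hochberg adjustment, as for all adjusted p-values below), or 20.3-fold, and the groups did not overlap. The probe stayed above background on all MK2/3-/- arrays, so the deletion left a detectable signal. In medium, the MK2-/- arrays gave 13.16, 12.39, 12.94 and 13.10 and the MK2/3-/- arrays 11.15, 10.94 and 11.40, a difference of -1.73 (adjusted p = 0.000467), and the difference was larger under LPS by -2.61 (adjusted p = 0.00415). Mapkapk2, the kinase deleted in both groups, gave 11.71, 11.52, 11.25 and 11.95 on the MK2-/- arrays and 10.92, 11.22, 10.87 and 11.08 on the MK2/3-/- arrays, against 15.06, 14.28 and 15.33 in LPS-treated wt BMDM. Its difference between the compared genotypes was -0.59 ± 0.29 (SE, adjusted p = 0.193). Mapkapk5, which encodes the related kinase PRAK, differed by -0.17 ± 0.13 (SE, adjusted p = 0.409).

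The absence of MK3 in addition to MK2 was accompanied by differences in many transcripts under LPS. Of 22384 genes tested, 3031 (13.5%) differed at an adjusted p below 0.05, with 1732 (7.74%) higher and 1299 (5.8%) lower in MK2/3-/- BMDM, and 1352 and 738 of these changed at least 2-fold. The arrays of the groups did not overlap for 1933 genes in the higher direction (8.64%) and for 1270 in the lower direction (5.67%). With the replicate number as a block on the 8 LPS arrays alone, 1178 genes passed (912 higher, 266 lower), 1046 of them shared with the 3031. Without MK2-/- array 1 the count was 1805 and without MK2-/- array 2 it was 1949, whereas leaving out both MK2-/- arrays numbered 3 gave 2939. Higher genes made up 57.1% of the calls after quantile normalisation and 68.6% when arrays were scaled to their 75th percentile. The median difference over all genes was -0.06.

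Genes that were higher in MK2/3-/- BMDM were mostly dim. In the lowest quartile of signal 10.8% of the genes were called higher and 4.52% lower, while in the brightest quartile the shares were 2.73% and 3.22%. For 237 of the 1732 higher genes, no LPS-treated MK2-/- array was well above background. Much of the difference was also present without LPS: 90.6% of the higher and 78.6% of the lower genes had the same sign in medium, where 632 genes (2.82%) were called. Over the higher genes the median difference was 1.70 under LPS and 0.87 in medium, and over the lower genes it was -1.07 and -0.33. The medium arrays share the slides of their genotypes. Genes induced at least 4-fold by LPS in wt BMDM, 1012 in all, were called higher in 6.32% and lower in 6.32% of cases, close to the shares over all genes. Among 1310 genes repressed at least 4-fold by LPS in wt BMDM, 3.05% were called higher and 9.54% lower.

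**Figure D1:**
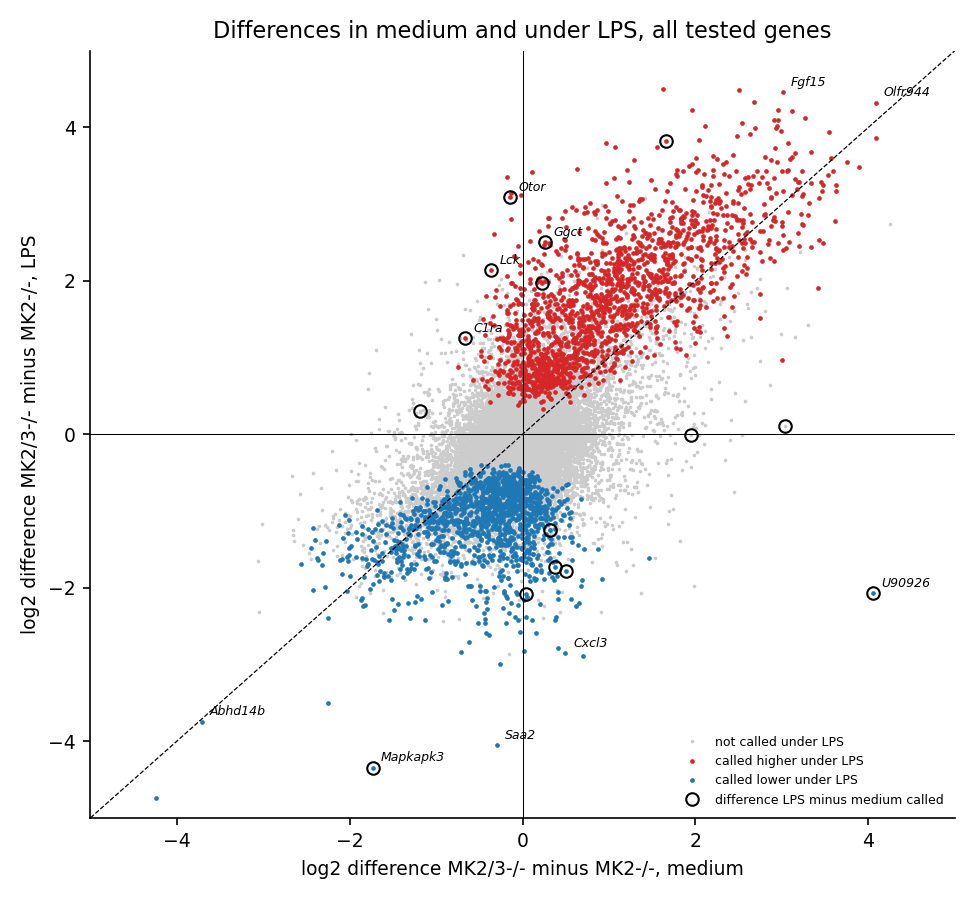
Difference between MK2/3-/- and MK2-/- BMDM (log2 of the mean signals) in medium, horizontal axis, and under LPS, vertical axis, for all 22384 tested genes, with called genes coloured and selected genes labelled. Abhd14b lies low on both axes, whereas Cxcl3 is low under LPS alone, and Saa2 lies near 0 in medium, where it was not above background.

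The neutrophil-attracting chemokine genes Cxcl3 and Cxcl1 and the colony-stimulating factor genes Csf2 and Csf3 were lower when MK3 was also missing. Of 11 tested CXC chemokines, Cxcl3 and Cxcl1 were called lower and none higher (against 5.8% lower and 7.74% higher over all genes), and the other CXCR2 ligands Cxcl2 (-0.38 ± 0.41 (SE, adjusted p = 0.603)), Cxcl5 (-0.92 ± 0.61 (SE, adjusted p = 0.351)) and Ppbp (-0.16 ± 0.75 (SE, adjusted p = 0.929)) did not pass. The sequences of the Cxcl3 and Cxcl1 promoters are shown because both genes, which lie close together on chromosome 5 and encode ligands of the chemokine receptor CXCR2, fell. The windows were taken from RefSeq for GRCm38.p6, plus strand, 250 bases before to 50 after the transcription start, with matches to the NF-kB motif (GGGA and TTCC with any 2 bases between them) in capitals.
Cxcl3, chr5:90785851-90786150: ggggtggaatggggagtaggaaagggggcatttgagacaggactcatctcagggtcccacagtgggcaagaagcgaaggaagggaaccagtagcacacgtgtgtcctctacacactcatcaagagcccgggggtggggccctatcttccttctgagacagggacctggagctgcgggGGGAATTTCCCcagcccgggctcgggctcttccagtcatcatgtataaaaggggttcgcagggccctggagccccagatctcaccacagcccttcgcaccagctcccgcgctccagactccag
Cxcl1, chr5:90890995-90891294: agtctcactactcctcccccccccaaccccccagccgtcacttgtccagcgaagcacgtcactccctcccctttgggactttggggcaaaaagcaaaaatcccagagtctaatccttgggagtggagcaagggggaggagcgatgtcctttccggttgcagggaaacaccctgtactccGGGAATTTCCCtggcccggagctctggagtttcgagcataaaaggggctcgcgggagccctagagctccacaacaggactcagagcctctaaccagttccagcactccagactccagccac
Each window held the same 11-base run, in which the motif overlaps itself on the opposite strand, beginning 73 bases before the start in Cxcl3 and 71 in Cxcl1. The motif was found on either strand in 1.47% of all 32851 RefSeq promoter windows, in 1.64% of those of tested genes, in 2.01% of those of genes called lower and in 1.45% of those of genes called higher. These matches describe letters and not factor binding.

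Cxcl3 (NM_203320) gave 16.38, 15.74, 15.74 and 14.10 on the MK2-/- arrays and 13.47, 12.16, 12.70 and 12.23 on the MK2/3-/- arrays, and fell by 2.85 ± 0.70 (SE, adjusted p = 0.0115), or 7.21-fold. All MK2-/- arrays lay above all MK2/3-/- arrays, and the LPS-treated wt arrays, at 14.92, 13.37 and 13.91, overlapped both groups. Cxcl1 gave 15.46, 14.32, 14.88 and 13.74 on the MK2-/- arrays and 14.06, 12.38, 12.78 and 13.19 on the MK2/3-/- arrays, with an overlap of the groups and a difference of -1.50 ± 0.48 (SE, adjusted p = 0.0448). Csf2, which encodes GM-CSF, gave 11.22, 10.19, 11.15 and 9.28 on the MK2-/- arrays and 7.98, 7.46, 8.92 and 8.58 on the MK2/3-/- arrays and differed by -2.22 ± 0.59 (SE, adjusted p = 0.0184), without overlap. Csf3, which encodes G-CSF and drives neutrophil production, gave 9.82, 9.88, 10.55 and 7.73 on the MK2-/- arrays and 5.77, 8.04, 8.22 and 6.25 on the MK2/3-/- arrays. Its difference was -2.43 ± 0.69 (SE, adjusted p = 0.0247), and MK2-/- array 4 was as low as some MK2/3-/- arrays. In medium Cxcl3 and Cxcl1 differed by 0.49 and 0.87, neither of them called, and neither passed the test of the difference between LPS and medium (adjusted p 0.335 and 0.306). Csf2 and Csf3 were not well above background on any medium-treated array of either genotype.

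The calls of Cxcl1, Csf2 and Csf3 depended on single arrays. In the fit with the replicate block, the adjusted p was 0.0581 for Cxcl1 and 0.055 for Csf2. Csf2 was not called without MK2-/- array 1 (adjusted p = 0.0666) or without both MK2-/- arrays numbered 3 (0.0566). Csf3 was not called without MK2-/- array 1, 2 or 3 or MK2/3-/- array 1 or 4 (adjusted p 0.0669 to 0.0724) or without both arrays numbered 3 (0.0788). Cxcl1 was not called without MK2-/- array 1, 2 or 3, MK2/3-/- array 2, 3 or 4 or medium-treated MK2-/- array 1 (adjusted p 0.0502 to 0.15). Cxcl3 was called without each array in turn.

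Of 19 tested tristetraprolin target transcripts, 4 were called lower and 1 higher (against 5.8% lower and 7.74% higher over all genes), with a median difference of -0.38 against -0.06 over all genes. The lower ones were Cxcl3, Cxcl1, Csf2 and Csf3 and the higher one was Il2, the T cell growth factor, at 2.22 ± 0.41 (SE, adjusted p = 0.00132), well above background on 1 of the 4 MK2-/- arrays, which was also higher in medium by 2.41 (adjusted p = 0.00378). Without both MK2-/- arrays numbered 3, the counts were 1 lower and 1 higher. Transcripts for which MK2 is best known did not pass the test. Tnf differed by 0.81 ± 0.44 (SE, adjusted p = 0.24), with all 4 MK2/3-/- arrays above the MK2-/- arrays. Il6 differed by 0.18 ± 0.87 (SE, adjusted p = 0.932), Il1b by 0.01 ± 0.69 (SE, adjusted p = 0.997), Il10, an anti-inflammatory cytokine, by -0.77 ± 0.44 (SE, adjusted p = 0.271), and Ptgs2, the inducible cyclooxygenase, by 0.23 ± 0.70 (SE, adjusted p = 0.883). Of 12 tested CC chemokines, none was called, with 2 at an unadjusted p below 0.05. None of 21 tested regulators of mRNA stability, the group that includes tristetraprolin and its relatives, was called, with 4 at an unadjusted p below 0.05.

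**Figure D2:**
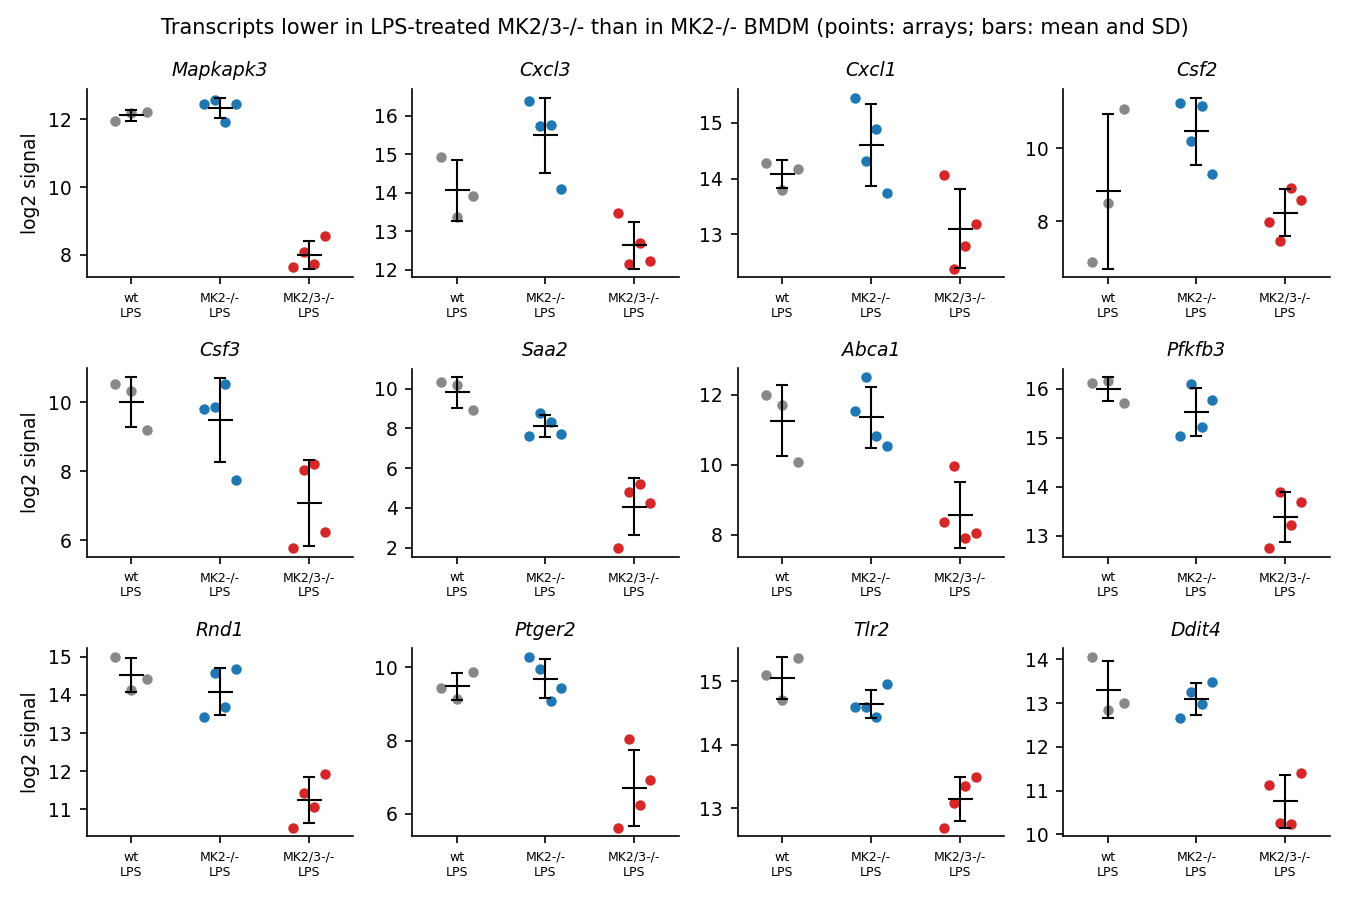
Normalised signal (log2) on each LPS-treated array of wt, MK2-/- and MK2/3-/- BMDM for 12 genes called lower in MK2/3-/- than in MK2-/- BMDM, with points for arrays and bars for the group mean and SD. For Mapkapk3 the MK2/3-/- arrays lie between 7.66 and 8.55 and all others at or above 11.91, whereas the groups overlap for Cxcl1 and Csf3.

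Acute-phase and iron-handling genes also contributed to the lower group. Saa2 encodes serum amyloid A2, an acute-phase protein of the liver that activated macrophages also make. Its promoter window is shown because the gene fell without overlap between the groups, with a match to the C/EBP motif TTGCNNAA in capitals (RefSeq, GRCm38.p6, plus strand).
Saa2, chr7:46751583-46751882: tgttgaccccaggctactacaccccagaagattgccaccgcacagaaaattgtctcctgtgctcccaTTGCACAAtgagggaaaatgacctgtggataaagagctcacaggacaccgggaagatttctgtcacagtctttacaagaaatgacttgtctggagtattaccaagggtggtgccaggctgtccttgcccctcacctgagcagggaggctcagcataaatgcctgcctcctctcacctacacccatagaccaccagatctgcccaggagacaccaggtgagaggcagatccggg
The match began 183 bases before the start. The C/EBP motif was found in 10.8% of all windows, 11.2% of those of tested genes, 10.5% of those of genes called lower and 14.4% of those of genes called higher.

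Saa2 (NM_011314) gave 7.63, 8.79, 8.32 and 7.71 on the MK2-/- arrays and 1.99, 4.81, 5.18 and 4.26 on the MK2/3-/- arrays, and fell by 4.05 ± 0.75 (SE, adjusted p = 0.00137). On MK2/3-/- array 1 the value was the floor of the scale, so that the size of the fall is not exact. All MK2/3-/- arrays lay below all MK2-/- arrays, and the wt arrays gave 10.33, 10.16 and 8.92. In medium neither genotype had an array with Saa2 well above background. Haptoglobin (Hp), which captures free haemoglobin, gave 10.39, 10.87, 9.60 and 9.53 on the MK2-/- arrays and 8.01, 8.68, 7.66 and 9.45 on the MK2/3-/- arrays, a difference of -1.65 ± 0.52 (SE, adjusted p = 0.0399). Slc40a1, which encodes the iron exporter ferroportin, gave 10.11, 10.39, 8.95 and 7.99 on the MK2-/- arrays and 8.27, 7.50, 6.70 and 6.16 on the MK2/3-/- arrays and differed by -2.21 ± 0.57 (SE, adjusted p = 0.015), with overlapping groups. Slc11a1, the phagosomal metal transporter NRAMP1, differed by -0.55 ± 0.18 (SE, adjusted p = 0.0478), and Steap3, an endosomal ferric reductase, was higher by 1.05 ± 0.26 (SE, adjusted p = 0.0109), although its second probe differed by -0.68. Saa3 lay between 17.32 and 18.56 on the MK2-/- arrays and between 15.36 and 17.22 on the MK2/3-/- arrays. These ranges do not overlap, but the difference was -1.72 ± 0.88 (SE, adjusted p = 0.212) and passed only with the replicate block (adjusted p = 0.0335). Lipocalin 2 (Lcn2, -1.42 ± 0.54 (SE, adjusted p = 0.0899)), Saa1 (-1.56 ± 0.74 (SE, adjusted p = 0.176)) and haem oxygenase 1 (Hmox1, -1.52 ± 0.56 (SE, adjusted p = 0.0798)) did not pass.

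Altogether, 4 of the 20 genes of this list were called lower and 1 higher (against 5.8% lower and 7.74% higher over all genes), with a median of -0.54, the lowest of the pathway lists. With the replicate block 3 were lower and none was higher, with an adjusted p of 0.0961 for Hp, 0.119 for Slc11a1 and 0.0668 for Steap3. Hp was not called without MK2-/- array 1 or 2 or MK2/3-/- array 1, 2 or 3 (adjusted p 0.0523 to 0.126) or with 75th percentile scaling (0.0861). Slc40a1 was not called without MK2-/- array 1 (0.0571) or 2 (0.0585). Slc11a1 lost its call when any single LPS-treated array of either genotype was left out (0.0571 to 0.104), and also without medium-treated MK2-/- array 3 or MK2/3-/- array 1 or 3 (0.0539 to 0.0545).

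Some cholesterol synthesis and export genes were lower in MK2/3-/- BMDM. Of 27 tested genes, 5 were called lower and 1 higher (against 5.8% lower and 7.74% higher over all genes), with a median of -0.39. Abca1, the transporter that loads cellular cholesterol onto apolipoprotein A-I and a target of the liver X receptor, gave 11.55, 12.51, 10.82 and 10.53 on the MK2-/- arrays and 8.36, 9.96, 7.90 and 8.05 on the MK2/3-/- arrays. It fell by 2.78 ± 0.56 (SE, adjusted p = 0.00284), or 6.88-fold, without overlap, and its difference in medium was 0.41. Mylip, another LXR target, which encodes the ubiquitin ligase that degrades the LDL receptor, was higher by 1.32 ± 0.29 (SE, adjusted p = 0.00552), and its second probe gave 1.52. Among the enzymes of cholesterol synthesis, Mvd differed by -1.01 ± 0.21 (SE, adjusted p = 0.0029), Fdft1 by -1.18 ± 0.37 (SE, adjusted p = 0.0424) and Sqle by -1.29 ± 0.42 (SE, adjusted p = 0.0488). Srebf1, which encodes a transcription factor of lipid synthesis, differed by -0.80 ± 0.19 (SE, adjusted p = 0.00848).

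These enzyme calls were less firm than that of Abca1. With the replicate block 1 gene of the list was lower and 1 higher, and the adjusted p was 0.073 for Mvd, 0.165 for Fdft1 and 0.177 for Sqle. Fdft1 was not called when any of MK2-/- arrays 1 to 4 or MK2/3-/- array 2 or 3 was left out, nor without medium-treated MK2-/- array 1 or 4 or MK2/3-/- array 1 (adjusted p 0.05 to 0.0892). Sqle was not called when any of MK2-/- arrays 1 to 4 or MK2/3-/- array 2 was left out, nor without any medium-treated MK2-/- array or MK2/3-/- array 1 or 3 (0.054 to 0.12). The second probe of Fdft1 differed by -0.19.

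Single genes of glucose, arginine and prostaglandin metabolism, namely Pfkfb3, Arg2, Ptges, Ptges2 and Ptger2, were lower. Pfkfb3, which makes a sugar bisphosphate that activates glycolysis, gave 15.04, 16.10, 15.22 and 15.78 on the MK2-/- arrays and 12.75, 13.89, 13.23 and 13.69 on the MK2/3-/- arrays and differed by -2.15 ± 0.36 (SE, adjusted p = 0.000582), and its second probe gave -2.96. Every MK2/3-/- array lay below every MK2-/- array. In medium, its difference was 0.41. Hexokinase 3 (Hk3) was higher by 0.70 ± 0.21 (SE, adjusted p = 0.0326), and these were the called genes among 23 of glycolysis, 1 in each direction (against 5.8% lower and 7.74% higher over all genes), whose median was -0.24. Arg2, the mitochondrial arginase, gave 8.01, 9.67, 7.91 and 7.71 on the MK2-/- arrays and 5.32, 6.50, 6.78 and 5.02 on the MK2/3-/- arrays and differed by -2.42 ± 0.57 (SE, adjusted p = 0.00881). Ptges, the inducible prostaglandin E synthase that acts downstream of cyclooxygenase 2, gave 15.50, 15.85, 15.61 and 14.67 on the MK2-/- arrays and 14.36, 14.13, 14.17 and 13.96 on the MK2/3-/- arrays, a difference of -1.25 ± 0.22 (SE, adjusted p = 0.000876) without overlap, while its second probe gave -1.22 with a p of 0.128 after adjustment over all probes. Ptges2, another prostaglandin E synthase, differed by -1.19 ± 0.18 (SE, adjusted p = 0.000299). Ptger2, which encodes the prostaglandin E2 receptor EP2, gave 10.30, 9.96, 9.09 and 9.43 on the MK2-/- arrays and 5.62, 8.03, 6.23 and 6.92 on the MK2/3-/- arrays and fell by 2.99 ± 0.43 (SE, adjusted p = 0.000164), or 7.97-fold. Arg2, Ptges and Ptges2 were the called genes among 19 of nitric oxide, arginine, itaconate and prostaglandin metabolism, all lower (5.8% over all genes). Nos2 (0.31 ± 0.47 (SE, adjusted p = 0.736)) and Acod1 (-0.02 ± 0.73 (SE, adjusted p = 0.991)), the enzymes that make nitric oxide and itaconate, did not pass. When the replicate number was fitted as a block, the adjusted p was 0.117 for Hk3 and 0.0507 for Ptges2. Hk3 was also not called without MK2-/- array 1, 2 or 3 or any of MK2/3-/- arrays 1 to 3 (0.0503 to 0.0842), or without both MK2-/- arrays numbered 3 (0.0977).

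Some stress-response transcripts differed, in both directions. Ddit4, a stress-induced inhibitor of mTORC1, gave 12.65, 13.25, 12.98 and 13.49 on the MK2-/- arrays and 11.13, 10.25, 10.24 and 11.40 on the MK2/3-/- arrays and differed by -2.34 ± 0.49 (SE, adjusted p = 0.00362). Slc7a11, the cystine transporter that feeds glutathione synthesis, gave 11.86, 12.31, 11.93 and 11.20 on the MK2-/- arrays and 9.72, 10.20, 10.09 and 9.93 on the MK2/3-/- arrays and differed by -1.84 ± 0.53 (SE, adjusted p = 0.0273). For both genes the groups did not overlap. Eif2ak3, the endoplasmic reticulum stress kinase PERK, differed by -1.77 ± 0.51 (SE, adjusted p = 0.0275) and was well above background on 1 of the 4 MK2/3-/- arrays. The stress kinase IRE1 (Ern1) and the phosphatase subunit GADD34 (Ppp1r15a) were higher by 0.70 ± 0.21 (SE, adjusted p = 0.0311) and 0.81 ± 0.22 (SE, adjusted p = 0.0181). In the list of the unfolded protein and integrated stress response 3 of 23 genes were called lower and 2 higher (against 5.8% lower and 7.74% higher over all genes), with a median of -0.40.

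Among 22 NRF2 and oxidative stress genes 4 were called lower and none higher (against 5.8% lower and 7.74% higher over all genes), with a median of -0.26. They were Slc7a11, the selenoprotein Txnrd1 (-0.90 ± 0.28 (SE, adjusted p = 0.0381)), catalase (Cat, -0.75 ± 0.19 (SE, adjusted p = 0.0124)) and the autophagy adaptor Sqstm1 (-0.94 ± 0.28 (SE, adjusted p = 0.0314)). Of 15 heat shock genes, only Hsf1, their transcription factor, was called, at -0.58 ± 0.18 (SE, adjusted p = 0.0415), against 5.8% lower over all genes. Blocking on the replicate number gave an adjusted p of 0.0643 for Txnrd1, 0.0712 for Cat, 0.127 for Eif2ak3, 0.121 for Ern1, 0.0672 for Ppp1r15a and 0.177 for Hsf1.

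Several of these calls rested on single arrays. Slc7a11 was not called without MK2-/- array 1 (0.0648) or 2 (0.0807) or MK2/3-/- array 1 (0.056) or 4 (0.0524). Txnrd1 was not called without MK2-/- array 1, 2 or 3 or MK2/3-/- array 1, 3 or 4 (0.0513 to 0.134), and Sqstm1 not without MK2-/- array 1, 3 or 4 or MK2/3-/- array 1 or 2 (0.0574 to 0.0905). Without both MK2-/- arrays numbered 3, Txnrd1 and Sqstm1 had adjusted p-values of 0.0508 and 0.0669. Eif2ak3 was not called without MK2-/- array 1 or 2 or MK2/3-/- array 1, 3 or 4 (0.055 to 0.108). Ern1 was not called without MK2-/- array 2 (0.0678) or 4 (0.0884) or MK2/3-/- array 3 (0.101), and Ppp1r15a not without MK2/3-/- array 1 (0.0555). Hsf1 was not called without MK2-/- array 1 or 2, MK2/3-/- array 1, 3 or 4, medium-treated MK2-/- array 1 or medium-treated MK2/3-/- array 3 (0.0506 to 0.145).

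The p38 pathway and Toll-like receptor genes included changes upstream of MK3. Of 23 tested genes of the MAPKAP kinase and p38 list, 4 were called lower and 2 higher (against 5.8% lower and 7.74% higher over all genes), Mapkapk3 among the lower ones. Mapk14, which encodes p38 alpha, gave 10.78, 10.90, 10.56 and 10.14 on the MK2-/- arrays and 7.92, 8.82, 9.22 and 9.95 on the MK2/3-/- arrays, a difference of -1.62 ± 0.31 (SE, adjusted p = 0.00193). A second probe of Mapk14 differed by -0.22 (adjusted p = 0.649 over all probes), and with the replicate block the first had an adjusted p of 0.111. Map2k3, a kinase that activates p38, differed by -0.69 ± 0.18 (SE, adjusted p = 0.0156), and Tab1, an adaptor of the kinase TAK1, by -0.84 ± 0.21 (SE, adjusted p = 0.0146). Dusp10, a phosphatase that inactivates p38 and JNK, gave 5.71, 5.63, 5.10 and 6.37 on the MK2-/- arrays and 7.87, 7.39, 7.01 and 8.63 on the MK2/3-/- arrays and was higher by 2.02 ± 0.51 (SE, adjusted p = 0.0136), without overlap. Mknk2, a kinase that phosphorylates the translation factor eIF4E, was higher by 0.67 ± 0.18 (SE, adjusted p = 0.018). The adjusted p with the replicate block was 0.0853 for Map2k3, 0.139 for Tab1 and 0.163 for Mknk2. Map2k3 was not called without MK2-/- array 2 (0.0628), and Mknk2 not without MK2/3-/- array 3 (0.057) or 4 (0.0541).

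Tlr2, the receptor for bacterial lipoproteins, gave 14.59, 14.60, 14.44 and 14.96 on the MK2-/- arrays and 12.70, 13.08, 13.34 and 13.48 on the MK2/3-/- arrays. It fell by 1.50 ± 0.21 (SE, adjusted p = 0.000146), or 2.82-fold, and its difference in medium was -0.01. The adaptor Tirap differed by -0.75 ± 0.17 (SE, adjusted p = 0.00553) and Irak3, a kinase-like inhibitor of Toll-like receptor signalling, by -1.15 ± 0.29 (SE, adjusted p = 0.0127). Higher were Tlr6, a partner of Tlr2, by 0.72 ± 0.18 (SE, adjusted p = 0.0149), and Tlr9, the receptor for unmethylated DNA, by 0.64 ± 0.18 (SE, adjusted p = 0.0251). These were 3 lower and 2 higher genes among 22 tested (against 5.8% lower and 7.74% higher over all genes). Under the replicate block, the adjusted p was 0.0961 for Tirap, 0.0722 for Tlr6 and 0.134 for Tlr9. Irak3 was not called without MK2-/- array 2 (0.0513), and Tlr9 not without MK2-/- array 1 (0.057) or 3 (0.0638) or MK2/3-/- array 3 (0.0719). Without both MK2-/- arrays numbered 3, Tlr6 and Tlr9 had adjusted p-values of 0.0511 and 0.071.

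Most genes of the NF-kB list (18 of 20) and of the AP-1, immediate-early and NR4A list (19 of 24) were not called, and the others went in both directions. Rel, the NF-kB subunit c-Rel, gave 8.31, 7.46, 7.56 and 8.38 on the MK2-/- arrays and 10.48, 10.45, 8.52 and 10.25 on the MK2/3-/- arrays and was higher by 2.00 ± 0.43 (SE, adjusted p = 0.00427), while in medium it was not well above background on any MK2-/- array and at least 2.58-fold higher in MK2/3-/- BMDM (adjusted p = 0.0574). Bcl3, a nuclear IkB protein, gave 15.05, 15.67, 15.05 and 15.62 on the MK2-/- arrays and 14.09, 14.94, 13.68 and 14.34 on the MK2/3-/- arrays and was lower by -1.09 ± 0.25 (SE, adjusted p = 0.00774). These were the 2 called genes among 20 of the NF-kB list, 1 in each direction (against 5.8% lower and 7.74% higher over all genes). Among 24 AP-1, immediate-early and NR4A factors, 2 were called lower and 3 higher (against 5.8% lower and 7.74% higher over all genes). Fosl2 was lower by -1.15 ± 0.25 (SE, adjusted p = 0.00522) and Fosb by -0.97 ± 0.31 (SE, adjusted p = 0.0483). Atf3 was higher by 1.13 ± 0.29 (SE, adjusted p = 0.014), Egr1 by 1.55 ± 0.45 (SE, adjusted p = 0.0303) and Batf3 by 0.95 ± 0.29 (SE, adjusted p = 0.0381). The second probe of Fosl2 differed by -0.11. In the fit with the replicate block, the adjusted p was 0.233 for Fosb, 0.0677 for Atf3 and 0.101 for Batf3. Egr1 was not called without MK2-/- array 1, 2 or 4 or MK2/3-/- array 3 or 4 (0.0548 to 0.105), and Batf3 not without MK2-/- array 1, 3 or 4 or MK2/3-/- array 1, 2 or 4 (0.072 to 0.104). Fosb was not called without MK2-/- array 1, 2, 3 or 4, MK2/3-/- array 3 or 4, medium-treated MK2-/- array 1, 3 or 4 or any medium-treated MK2/3-/- array (0.0546 to 0.156).

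Among the other receptors, Il4ra, the receptor chain for IL-4 and IL-13, differed by -1.57 ± 0.30 (SE, adjusted p = 0.00165), with 11.29, 12.42, 11.83 and 12.16 on the MK2-/- arrays and 9.93, 10.69, 10.56 and 10.27 on the MK2/3-/- arrays, whereas a second probe differed by 0.35. Il13ra1, its partner chain, was higher by 0.77 ± 0.25 (SE, adjusted p = 0.0485), with an adjusted p of 0.075 with the replicate block. It was not called without MK2-/- array 1, 2 or 3, MK2/3-/- array 1, 2 or 4, medium-treated MK2-/- array 1, 3 or 4 or any medium-treated MK2/3-/- array (0.0529 to 0.155). Nlrc4, an inflammasome sensor component for bacterial flagellin, differed by -1.89 ± 0.40 (SE, adjusted p = 0.00391).

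The largest falls included a gene on the chromosome that carries Mapkapk3. Abhd14b, a hydrolase gene 15 tested genes away from Mapkapk3, differed by -3.74 ± 0.36 (SE, adjusted p = 3.08e-06) under LPS and by -3.71 (adjusted p = 5.71e-05) in medium. Whether sequence from the donor strain around the deleted gene has a part in these values was not tested. Of the 10 tested genes on each side of Mapkapk3, 3 of 20 were called, namely Cacna2d2 (0.63), Tex264 (-0.57) and Rbm15b (-1.49). Of the 20 around Mapkapk2, 3 were called, namely AA986860 (0.92), Fam72a (1.04) and Slc26a9 (-1.25). Both counts lie near the 13.5% called over all genes. In medium 1 of the 20 around Mapkapk3 was called (2.82% over all genes) and none around Mapkapk2. This was Cish, the next gene, at -2.29 (adjusted p = 0.0168) in medium and -1.18 (adjusted p = 0.103) under LPS. When the replicate number was fitted as a block, the adjusted p was 0.138 for Cacna2d2, 0.129 for Tex264, 0.0517 for Rbm15b, 0.0522 for AA986860 and 0.053 for Fam72a. Tex264 was not called without MK2-/- array 1, 2 or 4, any LPS-treated MK2/3-/- array, medium-treated MK2-/- array 3 or 4 or any medium-treated MK2/3-/- array (0.0553 to 0.144). AA986860 was not called without MK2-/- array 2 (0.0785) or MK2/3-/- array 1 (0.0519), and Cacna2d2 not without MK2/3-/- array 3 (0.0649).

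On other chromosomes, Rnd1, a small GTPase gene induced by LPS in wt BMDM, gave 13.42, 14.57, 13.69 and 14.66 on the MK2-/- arrays and 10.53, 11.44, 11.07 and 11.94 on the MK2/3-/- arrays and differed by -2.84 ± 0.37 (SE, adjusted p = 7.34e-05). Lhfpl2, a tetraspan membrane protein gene, differed by -2.83 ± 0.44 (SE, adjusted p = 0.000336) under LPS and by 0.01 in medium. Rhou, another small GTPase gene, differed by -2.89 ± 0.82 (SE, adjusted p = 0.0257). The positions of Zfp599, a zinc finger gene, and of Gp1ba were not compared with that of Mapkapk3. Zfp599 differed by -2.71 ± 0.76 (SE, adjusted p = 0.0247). Gp1ba, which encodes a platelet receptor for von Willebrand factor, was not well above background on any MK2/3-/- array and was at least 1.75-fold lower there (adjusted p = 0.00116). Zfp599 had an adjusted p of 0.115 with the replicate block. Rhou was not called without MK2-/- array 2, 3 or 4 or MK2/3-/- array 1 or 3 (0.0512 to 0.0726), and Zfp599 not without MK2-/- array 1, 2 or 4 or MK2/3-/- array 1 or 2 (0.0503 to 0.0958). The largest fall of all belonged to the RefSeq accession NM_133362, which the gene table did not name, at -4.74 ± 1.16 (SE, adjusted p = 0.011) under LPS and -4.25 (adjusted p = 0.0786) in medium, and is given here after its value was seen.

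Complement and serpin genes were called in the higher direction in 6 of 21 cases and in the lower direction in none (against 5.8% lower and 7.74% higher over all genes), and in the higher direction in 3 cases without both MK2-/- arrays numbered 3 or with 75th percentile scaling. The list had a median of 0.31 against -0.06 over all genes. The promoter windows of C1ra, C1rb and Serpina3f are shown because these LPS-inducible genes rose. C1ra and C1rb are near-identical copies for the complement protease C1r, and Serpina3f is a serine protease inhibitor. Matches to the C/EBP motif TTGCNNAA and to the GAS motif TTCNNNGAA, the letters bound by STAT factors, are in capitals (RefSeq, GRCm38.p6, plus strand).
C1ra, chr6:124512371-124512670: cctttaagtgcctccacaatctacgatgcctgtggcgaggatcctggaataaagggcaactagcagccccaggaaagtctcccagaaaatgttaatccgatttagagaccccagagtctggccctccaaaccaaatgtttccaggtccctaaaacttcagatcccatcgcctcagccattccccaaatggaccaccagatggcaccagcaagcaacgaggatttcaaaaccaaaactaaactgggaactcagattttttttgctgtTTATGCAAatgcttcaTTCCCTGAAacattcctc
C1rb, chr6:124570180-124570479: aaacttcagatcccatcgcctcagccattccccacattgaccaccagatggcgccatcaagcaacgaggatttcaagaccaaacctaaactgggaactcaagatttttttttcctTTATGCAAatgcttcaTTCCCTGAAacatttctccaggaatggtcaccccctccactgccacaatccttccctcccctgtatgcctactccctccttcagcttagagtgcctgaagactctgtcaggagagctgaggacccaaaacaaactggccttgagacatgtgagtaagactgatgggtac
Serpina3f, chr12:104214294-104214593: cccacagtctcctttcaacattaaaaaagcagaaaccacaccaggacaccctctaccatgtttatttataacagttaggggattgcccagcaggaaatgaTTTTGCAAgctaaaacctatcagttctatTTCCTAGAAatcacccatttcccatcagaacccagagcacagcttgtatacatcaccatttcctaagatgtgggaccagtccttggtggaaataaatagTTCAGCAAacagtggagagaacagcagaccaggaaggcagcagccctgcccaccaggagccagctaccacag
In C1rb the C/EBP and GAS matches began 135 and 119 bases before the start, and in C1ra the same letters lay 16 and 32 bases after the start that the table gives. In Serpina3f, for which the first of 2 windows is shown, C/EBP matches began 150 and 22 bases before the start and a GAS match 121 bases before it. The GAS motif was found in 8.3% of all windows, in 8.96% of those of tested genes, in 10.4% of those of genes called higher and in 9.39% of those of genes called lower.

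C1ra gave 8.97, 9.53, 8.77 and 9.54 on the MK2-/- arrays and 10.67, 10.27, 10.27 and 10.63 on the MK2/3-/- arrays, without overlap, and was higher by 1.25 ± 0.23 (SE, adjusted p = 0.00121), while a second probe differed by 1.04 (adjusted p = 0.125 over all probes). In medium the MK2/3-/- arrays were not higher (-0.67), and the difference between LPS and medium was 1.92 (adjusted p = 0.0361). With 75th percentile scaling the LPS difference was 0.96 (adjusted p = 0.12). C1rb gave 6.45, 6.10, 6.66 and 6.96 on the MK2-/- arrays and 8.31, 8.14, 8.38 and 8.36 on the MK2/3-/- arrays, a difference of 1.75 ± 0.25 (SE, adjusted p = 0.00013), with -0.07 in medium. Because the copies are so alike, whether each probe reads its own gene was not tested. Serpina3f gave 10.87, 9.91, 9.85 and 10.24 on the MK2-/- arrays and 11.59, 11.50, 11.60 and 11.51 on the MK2/3-/- arrays. Its MK2/3-/- arrays lay close together and above the MK2-/- arrays, with a difference of 1.33 ± 0.34 (SE, adjusted p = 0.0133), and the second probe gave 3.07. Serpinb9, an inhibitor of granzyme B, was higher by 1.36 ± 0.44 (SE, adjusted p = 0.0449) and Plau, urokinase, by 1.63 ± 0.54 (SE, adjusted p = 0.0494). With the replicate block Plau had an adjusted p of 0.107, and with array weights Serpina3f had 0.0642.

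The remaining called complement gene, C2, was higher by 1.19 ± 0.34 (SE, adjusted p = 0.0275) under LPS and by 1.99 (adjusted p = 0.00462) in medium. Serpinb9 was not called without MK2-/- array 3 or 4, MK2/3-/- array 1, 2 or 4, medium-treated MK2-/- array 1, 3 or 4 or medium-treated MK2/3-/- array 1 (0.0532 to 0.127). Plau was not called without MK2-/- array 1, 2 or 3, MK2/3-/- array 2, 3 or 4, medium-treated MK2-/- array 2, 3 or 4 or any medium-treated MK2/3-/- array (0.0505 to 0.177).

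Nod1, the cytosolic sensor of bacterial peptidoglycan fragments, gave 12.79, 12.88, 12.45 and 13.46 on the MK2-/- arrays and 13.97, 13.92, 13.69 and 14.06 on the MK2/3-/- arrays and was higher by 1.02 ± 0.22 (SE, adjusted p = 0.0043), without overlap. Nod1 and Nlrc4 were the called genes among 18 of the NOD receptor and inflammasome list (against 5.8% lower and 7.74% higher over all genes). The cytokine subunits Il27 and Il12a were higher as well. Il27 gave 13.75, 13.47, 14.68 and 14.76 on the MK2-/- arrays and 15.67, 15.44, 15.75 and 15.39 on the MK2/3-/- arrays, a difference of 1.40 ± 0.31 (SE, adjusted p = 0.00522), and Il12a, the p35 subunit of IL-12, gave 6.12 to 7.02 on the MK2-/- arrays and 7.12 to 10.09 on the MK2/3-/- arrays, a difference of 2.11 ± 0.50 (SE, adjusted p = 0.00933). In medium Il27 differed by -0.07, and neither genotype had an array with Il12a well above background. With the replicate block their adjusted p-values were 0.0623 and 0.0607. Il12a and Il27 were the higher and Csf2 and Csf3 the lower genes called among 24 cytokines (against 5.8% lower and 7.74% higher over all genes). Without both MK2-/- arrays numbered 3 the counts were 2 higher and none lower.

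**Figure D3:**
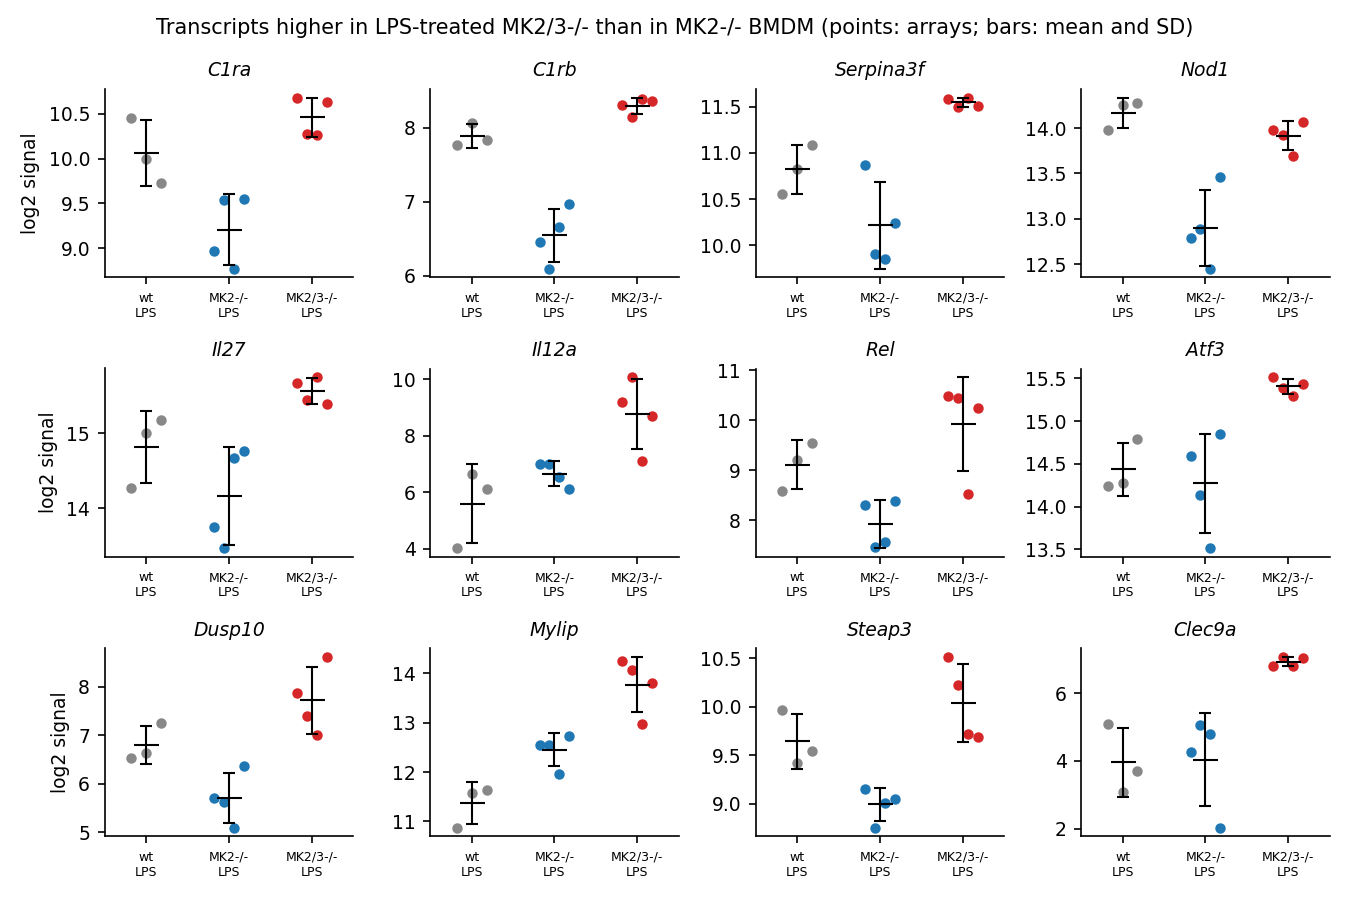
Normalised signal (log2) on each LPS-treated array of wt, MK2-/- and MK2/3-/- BMDM for 12 genes called higher in MK2/3-/- than in MK2-/- BMDM, with points for arrays and bars for the group mean and SD. For Serpina3f the MK2/3-/- arrays cluster between 11.50 and 11.60, above the MK2-/- arrays at 9.85 to 10.87.

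Interferon-related transcripts differed little as a group. None of 36 tested interferon-stimulated antiviral genes was called, with 1 at an unadjusted p below 0.05 and a range from -1.24 to 0.67. None of 18 guanylate-binding proteins and immunity-related GTPases was called, with 4 at an unadjusted p below 0.05, a median of 0.15 and a range from -0.19 to 1.13, and with the replicate block 2 were called higher. Ifnb1, which encodes interferon-β, gave 8.90, 7.41, 8.76 and 9.68 on the MK2-/- arrays and 9.77, 8.45, 10.07 and 10.70 on the MK2/3-/- arrays. Each MK2/3-/- array lay above the MK2-/- array of the same number, and the difference of 1.06 ± 0.69 (SE, adjusted p = 0.338) passed only with the replicate block (adjusted p = 0.0361). Of 22 type I interferon genes, 1 was called in each direction (against 5.8% lower and 7.74% higher over all genes). Ifna2 was higher by 1.65 ± 0.22 (SE, adjusted p = 7.43e-05) (second probe -0.66) and the receptor chain Ifnar1 lower by -0.82 ± 0.22 (SE, adjusted p = 0.02). Ifnar1 had an adjusted p of 0.112 with the block and was not called without MK2-/- array 1 (0.0783) or 2 (0.079) or MK2/3-/- array 3 (0.0544).

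The study drew its regulatory patterns from arrays at an earlier and a later time of LPS treatment. The later arrays are these samples, so the direction of the pattern genes here is not independent evidence. The study's list for the earlier time holds Ifnb1, Ccl12, Nod1, Cxcl3, Csf2, Il23a, Cxcl10, Marcksl1 and Socs1. For these genes, an uncalled or opposite value here does not test the pattern at the earlier time. The study also measured Ifnb1, C1ra, Nod1, Serpina3f, Cxcl3, Hdc and Cxcl9 by quantitative PCR, and further Il4ra, Cxcl2, Il10, Il19 and Il12b. These PCR values were not examined here. The study placed Il4ra, Cxcl2, Il10 and Il19 in a group lower in MK2-/- than in wt BMDM and not restored in MK2/3-/- BMDM. Il12b was placed in a group enhanced in both knockouts. Neither group was counted here. Of the genes placed with Ifnb1 as lower in MK2-/- than in MK2/3-/- BMDM, 6 were tested, all had a positive difference and 3 were called (C1ra, Nod1 and Serpina3f). Ccl12 (0.64 ± 0.53 (SE, adjusted p = 0.475)) and Iigp1 (0.75 ± 0.33 (SE, adjusted p = 0.134)) did not pass. Of 5 genes placed as amplified in MK2-/- BMDM, all had a negative difference and Cxcl3 and Csf2 were called. Hcar2, the niacin receptor, differed by -0.44 ± 0.43 (SE, adjusted p = 0.564), Slc7a1, an arginine transporter, by -0.67 ± 0.54 (SE, adjusted p = 0.458) and Shisa3 by -1.66 ± 0.83 (SE, adjusted p = 0.199), the last with an adjusted p of 0.0188 with the replicate block. Of 3 genes placed as lower when both kinases are missing, Hdc, histidine decarboxylase, differed by -0.45 ± 0.63 (SE, adjusted p = 0.71), Il23a by -1.82 ± 0.79 (SE, adjusted p = 0.137) and Saa3 by -1.72. Il23a passed without MK2-/- array 4 (-2.46, 0.049) or MK2/3-/- array 1 (-2.62, 0.023).

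Of 5 tested genes placed as higher when both kinases are missing, none was called with the brightest probe and 3 had a positive difference. Cxcl9, an interferon-γ-induced chemokine, gave 14.16, 15.29, 15.28 and 15.52 on the MK2-/- arrays and 17.19, 17.39, 16.78 and 16.94 on the MK2/3-/- arrays, without overlap, and the difference of 2.01 ± 0.80 (SE, adjusted p = 0.102) passed with the replicate block (adjusted p = 0.035). A second, dimmer Cxcl9 probe differed by 2.37 and passed (adjusted p = 0.00567 over all probes). Cd69, an early activation marker, differed by 1.24 ± 0.47 (SE, adjusted p = 0.0905) and likewise passed with the block (adjusted p = 0.0335). Cxcl10 differed by 0.08 ± 0.61 (SE, adjusted p = 0.959), Marcksl1 by -0.29 ± 0.40 (SE, adjusted p = 0.703) and Socs1, a feedback inhibitor of cytokine signalling, by -0.47 ± 0.44 (SE, adjusted p = 0.545).

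The largest rises belonged to genes that were near background in MK2-/- BMDM and that are mostly known from other tissues. Ankk1, Fgf15, Trex2, Serpinb11, Mrgprb3 and Glyatl3 were not well above background on any LPS-treated MK2-/- array and well above it on all MK2/3-/- arrays. They were at least 12-fold, 7.78-fold, 12.2-fold, 9.83-fold, 8.89-fold and 7.93-fold higher, with adjusted p-values between 4.69e-06 and 0.00203. Each bound sets the MK2/3-/- mean against the MK2-/- arrays, each raised to its lowest signal that counted as well above background wherever the probe lay under it. With normexp background correction Mrgprb3 differed by 1.29 (adjusted p = 0.106). In medium Trex2 (by 2.67, with 1 of 4 MK2-/- arrays above background), Serpinb11 (at least 7.59-fold) and Glyatl3 (at least 5.21-fold) were also called higher. The LPS-treated wt arrays lay above all LPS-treated MK2-/- arrays for Ankk1 (4.7, 4.6 and 5.7), Glyatl3 (5.5, 4.6 and 4.6) and Mrgprb3 (6.1, 4.7 and 10.6). They overlapped the MK2-/- arrays for Fgf15 (4.5, 2.0 and 3.5) and Serpinb11 (6.3, 3.5 and 3.1).

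Tert, the catalytic subunit of telomerase, gave 3.58, 4.33, 3.89 and 4.66 on the MK2-/- arrays and 8.17, 8.28, 8.44 and 7.63 on the MK2/3-/- arrays and was higher by 4.01 ± 0.36 (SE, adjusted p = 1.85e-06), with 2.11 (adjusted p = 0.00371) in medium. Olfr944, an olfactory receptor gene, was higher under LPS (adjusted p = 4.84e-05) and at least 8.08-fold higher in medium, and Scgb2b2, a secretoglobin gene, by 3.94 ± 0.53 (SE, adjusted p = 8.69e-05) and 3.54. Fbxw13, an F-box gene, was higher by 4.13 ± 0.57 (SE, adjusted p = 0.000116), with 3.26 in medium. Muc1, an epithelial mucin gene, was higher under LPS (adjusted p = 0.0024). Cyp2c67, a cytochrome P450 gene, was higher by 3.99 ± 0.84 (SE, adjusted p = 0.00382), but its other probe differed by 0.52. On the LPS-treated wt arrays Muc1 gave 5.8, 6.1 and 6.0 and Olfr944 5.7, 3.9 and 6.9. Scgb2b2 gave 7.2, 5.0 and 5.5 there, Fbxw13 9.4, 5.9 and 6.6 and Cyp2c67 3.0, 5.7 and 4.5. For Tert, Olfr944, Muc1, Scgb2b2 and Cyp2c67 only 1 of the 4 LPS-treated MK2-/- arrays was well above background. The sizes printed for Tert, Scgb2b2 and Cyp2c67 under LPS are therefore not exact. For Olfr944 and Muc1 the array above background was array 3 and the other 3 lay at the floor of the scale, so that no size is given.

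The difference between the genotypes was called as unequal between LPS and medium for 15 of 22384 genes (0.067%). It was more positive under LPS for 7 (0.0313%) and more negative for 8 (0.0357%). Mapkapk3 and C1ra were among these 15 genes and are given above. Lck, a Src family kinase best known from T cells, gave 10.89, 11.28, 10.69 and 11.74 on the MK2-/- arrays and 13.58, 13.16, 12.66 and 13.77 on the MK2/3-/- arrays under LPS and was higher by 2.14 ± 0.25 (SE, adjusted p = 2.01e-05), against -0.36 in medium, a difference of 2.50 (adjusted p = 0.0137). Ggct, an enzyme of glutathione turnover, gave 9.52, 9.51, 9.09 and 9.48 on the MK2-/- arrays and 11.89, 12.06, 11.61 and 12.05 on the MK2/3-/- arrays, a difference of 2.50 ± 0.24 (SE, adjusted p = 3.74e-06) against 0.26 in medium (adjusted p = 0.0252). Noxo1, the organiser of NADPH oxidase 1, gave 5.77 to 6.21 on the MK2-/- arrays and 7.85 to 8.10 on the MK2/3-/- arrays, with 1.97 ± 0.20 under LPS and 0.22 in medium (adjusted p = 0.0361). In all 3 genes the compared LPS groups did not overlap. The LPS-treated wt arrays gave 10.68, 10.82 and 10.93 for Lck and 11.90, 11.90 and 11.59 for Ggct. For Noxo1 they gave 7.47, 7.03 and 6.85. Otor, a secreted cartilage protein gene, differed by 3.09 ± 0.36 under LPS and -0.14 in medium (adjusted p = 0.0322), and Tcl1b2 by 3.83 ± 0.27 and 1.66 (adjusted p = 0.0497).

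Calcrl, the receptor subunit for adrenomedullin and calcitonin gene-related peptide, gave 9.77, 9.68, 9.51 and 9.42 on the MK2-/- arrays and 7.70, 7.76, 7.81 and 8.18 on the MK2/3-/- arrays. It was lower by -1.73 ± 0.23 (SE, adjusted p = 7.37e-05) under LPS and differed by 0.38 in medium (adjusted p of the difference 0.0252). Ampd3, an AMP deaminase, differed by -2.08 ± 0.25 under LPS and 0.04 in medium (0.0361). Nol4l (-1.78 ± 0.28 and 0.50, 0.0474) and Repin1 (-1.24 ± 0.19 and 0.32, 0.0474) had the same form, although the LPS call of Repin1 was lost with the replicate block (adjusted p = 0.0576). U90926, an LPS-induced transcript, changed sign. Under LPS it gave 13.59, 13.63, 12.65 and 11.57 on the MK2-/- arrays and 11.03, 11.34, 11.09 and 9.70 on the MK2/3-/- arrays, a difference of -2.07 ± 0.61 (SE, adjusted p = 0.0306), whereas in medium the MK2-/- arrays gave 2.03, 3.46, 3.50 and 2.03 and the MK2/3-/- arrays 6.82, 6.73 and 6.86. None of these MK2-/- arrays was well above background, and the MK2/3-/- level in medium was at least 8.79-fold higher. The LPS call was lost without MK2-/- array 1 (0.0977) or 2 (0.0961) or MK2/3-/- array 4 (0.0922). Parp3 differed by -1.19 in medium and was not called under LPS (0.31). Adgrg5 and Cbx7 were at least 3-fold and 1.37-fold higher in medium but were not well above background on any LPS-treated array of either genotype, so that their test of LPS against medium compares nothing under LPS. The count of 15 ranged from 1 to 41 when single arrays were left out and was 19 without both MK2-/- arrays numbered 3.

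**Figure D4:**
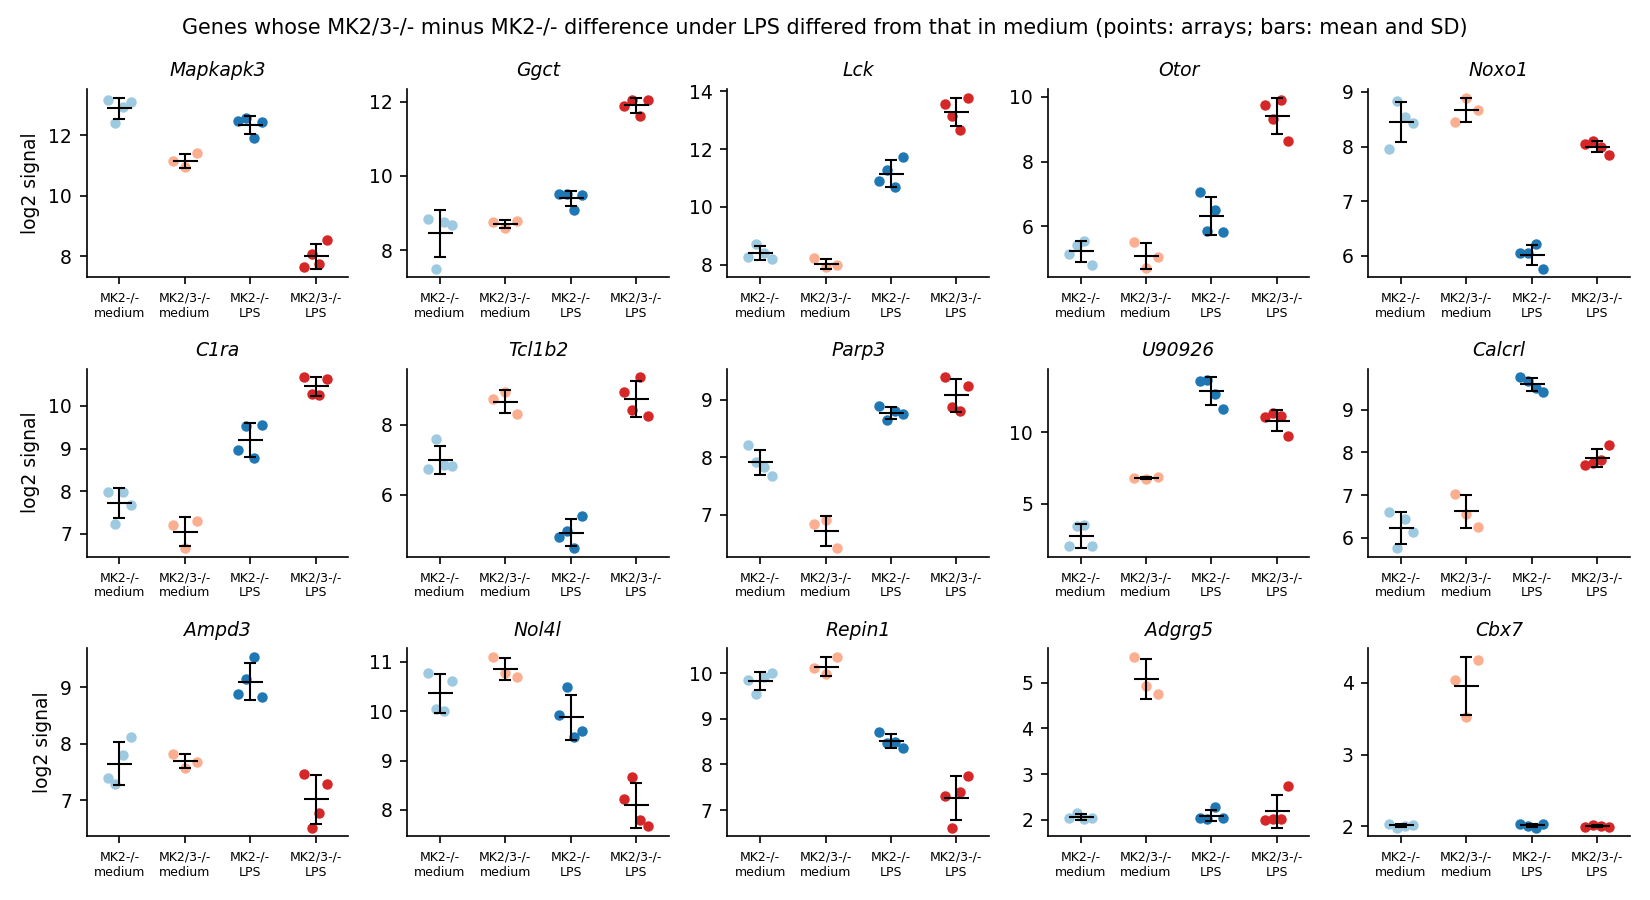
Normalised signal (log2) on each array of medium-treated and LPS-treated MK2-/- and MK2/3-/- BMDM for the 15 genes whose genotype difference was called as unequal between LPS and medium, with points for arrays and bars for the group mean and SD. For U90926 the MK2/3-/- arrays lie above the MK2-/- arrays in medium and below them under LPS.

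Housekeeping and cell cycle lists showed few calls. None was called among 38 cytosolic ribosomal protein genes (1 at an unadjusted p below 0.05), 35 genes of the mitochondrial respiratory chain (2), 30 of lysosomal enzymes (2), 32 of mitosis (2), 21 of MHC class I presentation (1), 23 of the BCL-2 family and death signalling (5), 12 of Fc gamma receptors and NADPH oxidase (3) or 15 of matrix metalloproteinases (2). Among 36 DNA replication genes, 1 was called in each direction (against 5.8% lower and 7.74% higher over all genes). Gins3, a subunit of the replicative helicase, was higher by 0.51 ± 0.14 (SE, adjusted p = 0.0199) and Pola2, of DNA polymerase alpha, lower by -0.84 ± 0.22 (SE, adjusted p = 0.0171). Of 20 MHC class II genes only H2-DMb2 was called, and it was lower (adjusted p = 0.0287), against 5.8% lower over all genes. It was well above background on 1 MK2-/- and no MK2/3-/- array, so that no fold is given. Of 15 purinergic and adenosine receptors, 2 were called, both higher (against 7.74% over all genes). The ATP-gated channel P2rx1 was higher by 1.72 ± 0.42 (SE, adjusted p = 0.0104) and P2ry13, an ADP receptor, by 2.17 ± 0.70 (SE, adjusted p = 0.0459). Blocking on the replicate number gave an adjusted p of 0.154 for Gins3, 0.0682 for Pola2, 0.0585 for H2-DMb2 and 0.0866 for P2rx1. P2ry13 was not called without MK2-/- array 2, 3 or 4, MK2/3-/- array 1 or 2, any medium-treated MK2-/- array or medium-treated MK2/3-/- array 1 (0.05 to 0.132), nor H2-DMb2 without MK2-/- array 1 or 2 or MK2/3-/- array 1, 3 or 4 (0.0513 to 0.0794). Gins3 was not called without MK2-/- array 2 (0.0735) or MK2/3-/- array 4 (0.0538), nor Pola2 without MK2-/- array 1 (0.053) or MK2/3-/- array 2 (0.0523).

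**Figure D5:**
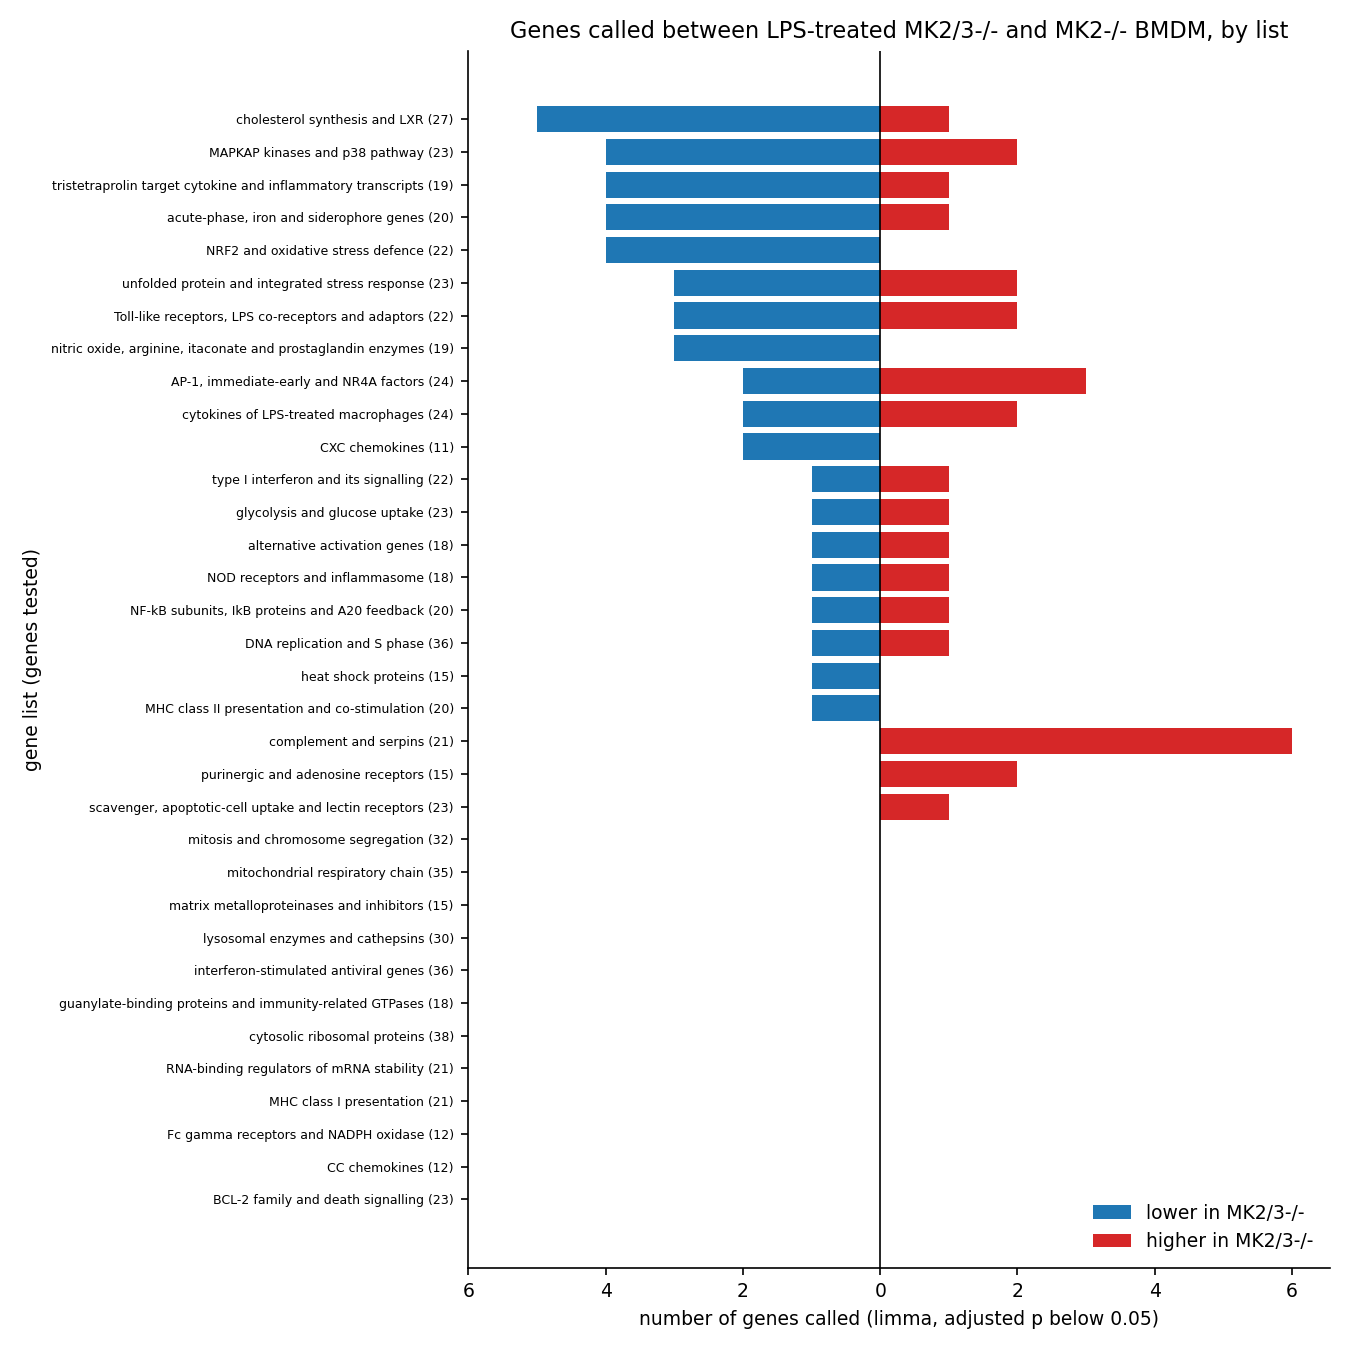
Number of genes called lower (left of 0) and higher (right of 0) after the additional loss of MK3 in each pathway list, with the number of tested genes beside the list name. The complement and serpin list has 6 higher and no lower genes, and the cholesterol list 5 lower and 1 higher.

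The cells of both groups carried the macrophage markers. None of 9 tested macrophage marker genes was called (2 at an unadjusted p below 0.05), all were above background, and their summed signal was 19.5 to 19.6 on the MK2-/- and 19.2 to 19.4 on the MK2/3-/- arrays (log2). Dendritic cell markers were called higher in 3 of 9 cases (against 7.74% over all genes), and the other 6 were not called. Clec9a, a receptor for dead cells, was higher by 2.90 ± 0.53 (SE, adjusted p = 0.00121), with 2 MK2-/- arrays well above background. Xcr1, a chemokine receptor of cross-presenting dendritic cells, was higher by at least 4.59-fold (adjusted p = 0.000616, no MK2-/- array well above background). Flt3, a growth factor receptor of dendritic cell precursors, was higher by 1.60 ± 0.38 (SE, adjusted p = 0.00845). The summed signal of the 9 markers was 15.7 to 16.7 on the MK2-/- and 16.2 to 16.8 on the MK2/3-/- arrays. With the replicate block these adjusted p-values were 0.0526, 0.0593 and 0.117, and a second probe of Flt3 differed by -1.15. In these bulk cultures a greater number of such cells and more RNA per cell cannot be told apart.

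Other lineages were represented by single markers near background. The B cell gene Pax5 (1.34 ± 0.39 (SE, adjusted p = 0.0271)), the T cell genes Cd4 (1.06 ± 0.27 (SE, adjusted p = 0.0125)) and Cd8a (2.43 ± 0.75 (SE, adjusted p = 0.0371), with 1 of 4 MK2-/- arrays well above background), the mast cell protease gene Cpa3 (at least 4.01-fold, adjusted p = 0.000193), the neutrophil elastase gene Elane (0.84 ± 0.25 (SE, adjusted p = 0.0343)) and the osteoclast fusion gene Ocstamp (2.29 ± 0.28 (SE, adjusted p = 3.88e-05)) were higher. Haemoglobin alpha (Hba-a1, -0.88 ± 0.25 (SE, adjusted p = 0.0252)) and the platelet integrin gene Itga2b (at least 2.29-fold, adjusted p = 0.0341, no MK2/3-/- array well above background) were lower. The second probe of Pax5 differed by -1.50 and that of Cd4 by 0.33. The summed B cell signal was 8.58 to 9.19 on the MK2-/- and 8.93 to 9.34 on the MK2/3-/- arrays, and the summed T or NK cell signal 13.1 to 13.6 and 13.3 to 14.0. Pax5, Cd4, Cpa3 and Ocstamp differed in the same direction in medium (by 2.02, 1.16, at least 2.74-fold and 1.73). The part of these cells in the differences of other genes was not tested.

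Under the replicate block, the adjusted p was 0.209 for Pax5, 0.104 for Cd4, 0.115 for Elane, 0.109 for Hba-a1 and 0.0791 for Itga2b. Leaving out single LPS-treated arrays ended the call of Cd8a (MK2-/- array 1, 2 or 4 or MK2/3-/- array 1, 3 or 4, 0.0668 to 0.107), Pax5 (MK2-/- array 1 or 2 or MK2/3-/- array 1 or 4, 0.0619 to 0.104), Cd4 (MK2-/- array 2, 0.0515), Elane (MK2-/- array 1, 2 or 4 or MK2/3-/- array 1, 2 or 3, 0.0673 to 0.116), Hba-a1 (MK2-/- array 1, 2 or 4 or MK2/3-/- array 3 or 4, 0.0585 to 0.0817) and Itga2b (MK2-/- array 1, 2 or 3 or MK2/3-/- array 3 or 4, 0.0754 to 0.109). A second probe of Cd8a differed by -0.35.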

How the data were processed

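RNA from 22 BMDM cultures was hybridised to 1-colour Agilent mouse arrays, 1 array per culture. Per the file headers, the deposited intensities were background-subtracted by Agilent Feature Extraction 11.0.1.1 without normalisation across arrays. A deposited table of log2 values, which the authors had quantile-normalised and set to each probe's median over all samples, served as an alternative. Here, control spots were removed, marked spots were set to missing, log2 intensities were quantile-normalised, and spots of a probe were averaged. Probes with a RefSeq or GenBank accession entered if 3 or more arrays had them well above background, and the brightest probe stood for its gene (22384 genes). Names came from a RefSeq table (GRCm38.p6), which named 27509 of 29150 RefSeq probes. Quantile normalisation removes differences in overall signal between arrays, and dim probes carry more error. The number of arrays limits the precision, and no spot was saturated.

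Group means were fitted on all 22 arrays with limma 3.58.1 in R 4.3.3 with genes called when the p adjusted by Benjamini-Hochberg was below 0.05, after a test of the code on simulated data. Replicate numbers from the titles paired the cultures, because deviations from the group means correlated at 0.117 to 0.292 between same-numbered arrays of the LPS groups and at -0.213 to 0.103 otherwise, so the fit with the number as a block is given where it changed a call. No array pair of a group held identical values (correlations 0.953 to 0.985). Named genes were the MAPKAP kinases, the 12 largest non-overlapping called changes of at least 2-fold in each direction, up to 4 called members per list and direction, genes called for the difference between LPS and medium, the study's pattern genes and called neighbours of the deleted genes. Some genes that the rule names are not reported here. Srebf1, C2 and uncalled members of the lists were added after their values were seen. The comparison, the lists and the tests were chosen with earlier results of these data known. Alternatives covered normalisation, background, filters, probe choice, model and single arrays. Motifs were searched on both strands of the RefSeq promoter windows.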

Additional observations from a re-analysis of the deposited data

Results flagged for a closer look

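Some arrays stood apart from the other 3 of their group, by a gap whose share of the group's range, given in parentheses, was above Dixon's 95% limit for 4 values. Among 258 groups of 4 arrays this applied to 21, and chance alone flags about 1 in 20 groups. On LPS-treated MK2-/- array 3, the array with 2927 marked spots, Muc1 (0.995 of the range, 5.81 against 2.01 to 2.03 on the log2 scale), Olfr944 (0.992, 4.55 against 2.01 to 2.03), Cd8a (0.842, 5.68 against 2.87 to 3.31), Fgf15 (0.934), Adgrg5 (0.92) and Cpa3 (0.854) were high and Ggct (0.915) was low. The values of about 2 are the floor of the scale and carry no order. MK2-/- array 1 had high Fam72a (0.967) and low Rhou (0.896, 8.26 against 10.07 to 10.28). MK2-/- array 2 had high Arg2 (0.843) and Map2k3 (0.866) and low Fbxw13 (0.925).

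Among the LPS-treated MK2/3-/- arrays, array 1 had high P2rx1 (0.945) and low Slc26a9 (0.908). Array 2 had high H2-DMb2 (0.983) and Eif2ak3 (0.941) and low Cat (0.918) and Sqle (0.846, 8.17 against 10.26 to 10.64). Array 3 had low Rel (0.884, 8.52 against 10.25 to 10.48), and array 4 had low Marcksl1 (0.829) and high Adgrg5 (0.963).

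The genotype difference was unequal between LPS and medium, by the test of that difference, for Otor (3.23), Lck (2.50), Ggct (2.24), Tcl1b2 (2.16), C1ra (1.92), Noxo1 (1.75) and Parp3 (1.49) in the positive direction. In the negative direction it was unequal for U90926 (-6.12), Adgrg5 (-2.93), Mapkapk3 (-2.61), Nol4l (-2.28), Ampd3 (-2.12), Calcrl (-2.11), Cbx7 (-1.96) and Repin1 (-1.56), all as log2 differences. Adgrg5 and Cbx7 were not well above background on any LPS-treated array of either genotype and U90926 on no medium-treated MK2-/- array, so that these 3 values carry no exact size or order.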

How the results depend on the processing

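The LPS count of 3031 stayed within 1.5 times under 75th percentile scaling (2113), normexp background (3105), the authors' table (2846), other probe filters and the probe with the highest wt induction (3002 to 3106) and a random block (2958). It was 6878 over all probes, 1294 with only the compared arrays, 1178 with the replicate block and 719 with the methods' t-test after adjustment, and it lay between 1805 and 3281 when 1 array was omitted. The medium count of 632 was 395 with normexp, 1880 over all probes, 1830 with array weights, 354 with the methods' t-test after adjustment and 3470 without, and it ranged from 294 to 752 with 1 array omitted. The LPS minus medium count of 15 was 9 with 75th percentile scaling, 8 with the authors' table, 9 over all probes, 8 with only the compared arrays, 25 with a random replicate block and 114 with array weights, and 1 to 41 with 1 array omitted. The causes were not tested.

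Over all settings the named genes kept direction and call in 3289 cases, lost the call in 513, gained it in 20 and reversed in 2, both with the probe of highest wt induction (Cd8a -0.346, Flt3 -1.15). The replicate block ended 50 and added 5 calls of named genes, given in the report. Leaving out both MK2-/- arrays numbered 3, chosen after seeing the data, ended 23, among them Cxcl1, Csf2, Csf3, Fdft1, Sqle, Slc11a1, Serpinb9, Plau, Batf3, Fosb, Hk3, Il13ra1, H2-DMb2, Itga2b, Rhou, P2ry13, Tex264, AA986860 and Cacna2d2. In the lists without a call, the methods' t-test after adjustment also called none, while normexp called 3 guanylate-binding proteins or GTPases higher and 2 Fc gamma receptor or NADPH oxidase genes lower. Signal over background limits the calls, since 237 of the higher and 104 of the lower genes had no array above background in the dimmer group.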
